A study of Homo sapiens with 9 samples.

Results

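The genes described here are 36 ribosome biogenesis and nucleolar genes, taken as a readout of MYC or MYCN activity. A gene was represented by the probe set that the platform annotation gives to its symbol alone and, where there were several, by the one with the highest mean log2 intensity over all 9 arrays. A value was obtained for 28 of the 36 genes, out of 11963 genes with such a probe set. NOP56, DKC1, BOP1 and PPAN were annotated only on probe sets that carry several symbols, and NOP58, GNL3, DDX18 and LYAR had no listed probe set, so these 8 genes have no value here. The 28 measured genes were bright: all 28 lay above the median gene, and their median lay at the 84.8th percentile of all genes.

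The arrays held total RNA from IMR-32, a human neuroblastoma cell line known for an amplified MYCN gene. Of 3 groups with 3 arrays each, 69CHAT cells stably expressed the 69-kDa form of choline acetyltransferase (ChAT), the enzyme that makes acetylcholine, 82CHAT cells stably expressed its 82-kDa form, and WT cells were labelled wild type. The promoter of the transgenes, the number of clones behind each line and a vector control were not given in the sources used here. A protein form and the line that carries it therefore cannot be told apart.

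Ribosome production begins in the nucleolus, where RNA polymerase I transcribes a long precursor of ribosomal RNA. Small nucleolar ribonucleoproteins (snoRNPs) modify this precursor and help to cleave it, and large sets of assembly factors, helicases and nucleases turn it into the small and large subunits. MYC and its relative MYCN bind E-box sequences and are known to activate many of these genes, and neuroblastomas with amplified MYCN are known for prominent nucleoli.

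MYCN and MYC differed between the ChAT lines and the arrays labelled WT by more than any of the 28 genes did. MYCN read 4181, 5567 and 5947 on the 69CHAT arrays, 4301, 6025 and 6118 on the 82CHAT arrays, and 62.5, 120.5 and 99.97 on the WT arrays (RMA intensity on a linear scale). The groups were far apart, with MYCN 56.9-fold higher in 69CHAT cells than in WT cells (log2 difference 5.83 ± 0.25, SE; limma adjusted p = 9.8e-07) and 59.5-fold higher in 82CHAT cells than in WT cells (5.89 ± 0.25; adjusted p = 9.4e-07). On the WT arrays MYCN lay under 133.7, the lowest of the array medians, so the size of its difference is uncertain. MYC went the other way, with 33.0, 35.9 and 33.5 in 69CHAT cells, 33.9, 33.97 and 32.4 in 82CHAT cells, and 233, 124 and 229 in WT cells. MYC was lower in 69CHAT cells (log2 -2.46 ± 0.21, SE; adjusted p = 5.6e-05) and in 82CHAT cells (-2.49 ± 0.21; adjusted p = 5.2e-05) than in WT cells. In both ChAT lines MYC lay under 55.9, the lowest of the 9 arrays' lower quartiles, so it was close to background there and the size of its difference is uncertain.

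The low MYCN on the arrays labelled WT does not match what IMR-32 is known for, and other markers moved with it. Of 14 measured sympathoadrenal markers other than MYCN, 9 were higher and 1 lower in each ChAT line than in WT cells. Their summed intensity ran from 7428 to 13773 in 69CHAT cells, from 10483 to 15307 in 82CHAT cells and from 2550.0 to 2876 in WT cells. TH and DBH, defining genes of this lineage, were dim on all 9 arrays, at 38.8 to 55.8 and 59.7 to 101.6. Of 10 measured epithelial markers, 6 were lower and 0 higher in each ChAT line, and their summed intensity was 561 to 645 in 69CHAT cells, 568 to 670 in 82CHAT cells and 5762 to 6480 in WT cells. EPCAM, an epithelial adhesion molecule, read 26.4 to 29.7 in 69CHAT cells, 24.7 to 29.1 in 82CHAT cells and 493 to 1209 in WT cells. Of 9 mesenchymal markers 1 was higher and 2 lower in each ChAT line, and of 3 Schwann and glial markers 0 were called in either line. As background to these counts, 11.7% of all genes were higher and 17.7% lower in 69CHAT cells, and 11.8% and 18.5% in 82CHAT cells. Over all probe sets each WT array correlated with the ChAT line arrays at 0.913 to 0.933, against 0.976 to 0.994 between 69CHAT and 82CHAT arrays. The identity of the cells on the arrays labelled WT was not tested, and every difference from WT below rests on those 3 arrays. Expression of ChAT, the identity of the WT cells and all other differences between the lines cannot be told apart in these comparisons.

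**Figure D1:**
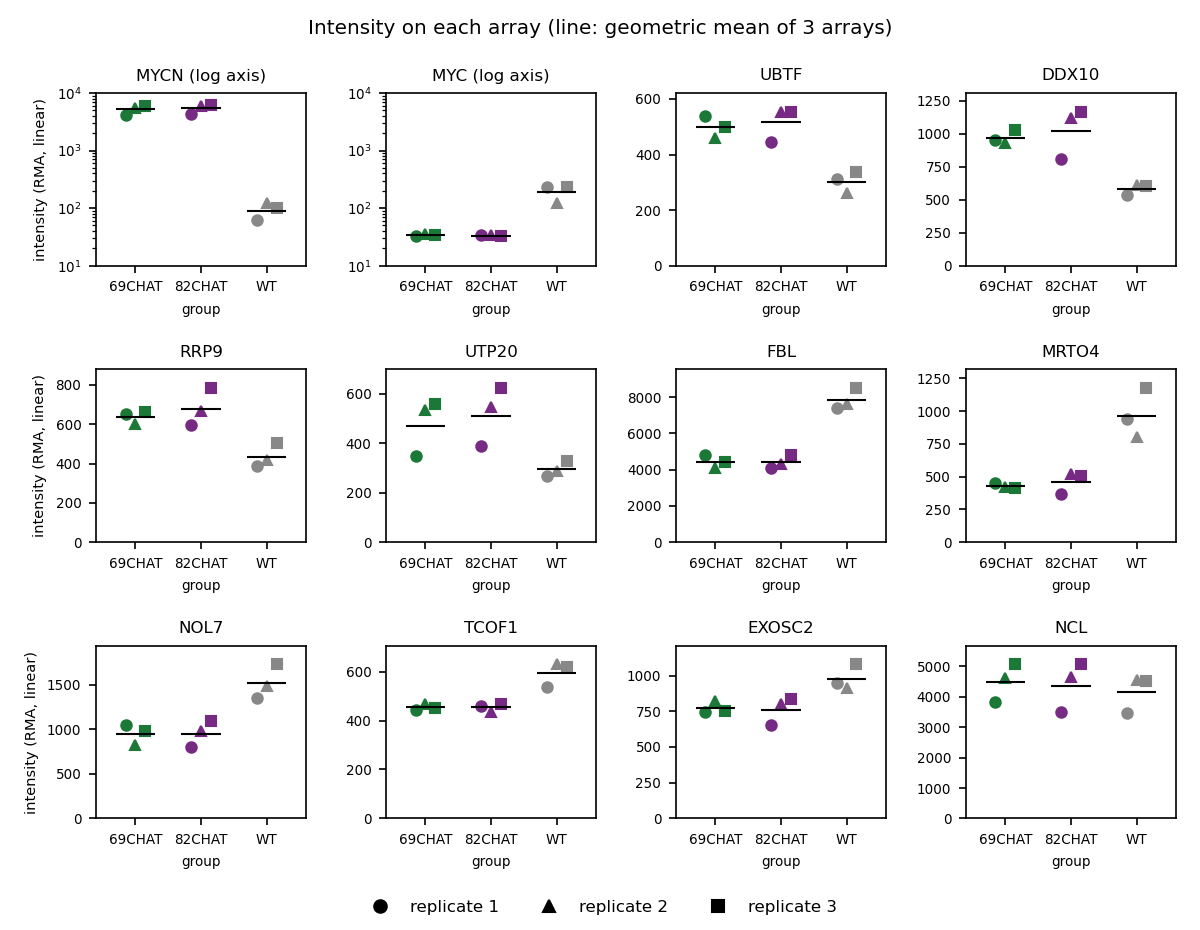
Intensity (RMA, linear scale; log axes for MYCN and MYC) of 12 genes on each of the 9 arrays, with groups on the x axis, a marker shape per replicate number and a line at the geometric mean of the 3 arrays. MYCN lies between 4181 and 6118 in both ChAT lines and between 62.5 and 120.5 in WT cells, while NCL overlaps between the groups; UBTF, DDX10 and RRP9 lie above WT and FBL, MRTO4, NOL7, TCOF1 and EXOSC2 below it.

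Because MYC proteins bind E-boxes, promoter windows of the members were searched for them. The windows, 250 bases before to 50 bases after each annotated start, are from RefSeq (GRCh38.p14). The canonical E-box CACGTG, which reads the same on both strands, was found in 8.77% of 27305 genes with a window and in 14 of the 29 members with a window (48.3%). The variant CACGCG, searched on both strands and counted apart from the first motif, was found in 13.5% of all genes and in 8 of 29 members (27.6%). The promoters of 5 genes are shown. FBL, MRTO4, RRP9 and NOL7 had the smallest limma adjusted p in 82CHAT against WT cells among members with CACGTG. UBTF had the smallest among members without it. The direction of the difference played no part in the choice. Each is printed 5′ to 3′ on the gene's own strand, from 250 bases before the start to 30 bases from it on, in lower case with the E-box in capitals, and positions count from 1 at the start. FBL lies at chr19:39846350-39846629 (minus strand), with its E-box from base 7. MRTO4 lies at chr1:19251555-19251834 (plus strand), with its E-box from base 15. RRP9 lies at chr3:51941875-51942154 (minus strand), with its E-box from base -5. NOL7 lies at chr6:13615085-13615364 (plus strand), with its E-box from base -149. UBTF lies at chr17:44219646-44219925 (minus strand), 1 of its 2 windows, and neither holds CACGTG.
FBL: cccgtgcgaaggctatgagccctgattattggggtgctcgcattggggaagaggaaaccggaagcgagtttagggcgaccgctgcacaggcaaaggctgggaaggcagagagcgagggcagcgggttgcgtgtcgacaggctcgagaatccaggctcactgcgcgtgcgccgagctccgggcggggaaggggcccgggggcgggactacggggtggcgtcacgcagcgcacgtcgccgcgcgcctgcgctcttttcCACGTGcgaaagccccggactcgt
MRTO4: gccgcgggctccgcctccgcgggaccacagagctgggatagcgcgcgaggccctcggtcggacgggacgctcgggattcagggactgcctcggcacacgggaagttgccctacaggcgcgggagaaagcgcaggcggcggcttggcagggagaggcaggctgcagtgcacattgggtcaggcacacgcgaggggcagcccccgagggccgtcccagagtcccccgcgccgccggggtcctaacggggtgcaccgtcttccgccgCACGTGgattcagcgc
RRP9: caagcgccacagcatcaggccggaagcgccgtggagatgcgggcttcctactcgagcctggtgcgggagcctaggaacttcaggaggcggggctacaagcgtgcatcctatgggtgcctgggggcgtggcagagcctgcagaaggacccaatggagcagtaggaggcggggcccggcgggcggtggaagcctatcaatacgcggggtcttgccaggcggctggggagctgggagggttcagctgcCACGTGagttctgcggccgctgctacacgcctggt
NOL7: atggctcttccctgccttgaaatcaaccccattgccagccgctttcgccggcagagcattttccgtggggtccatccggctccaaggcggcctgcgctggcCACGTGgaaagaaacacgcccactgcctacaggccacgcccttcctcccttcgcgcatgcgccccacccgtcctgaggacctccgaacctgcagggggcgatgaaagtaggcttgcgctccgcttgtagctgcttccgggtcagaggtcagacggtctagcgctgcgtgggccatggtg
UBTF: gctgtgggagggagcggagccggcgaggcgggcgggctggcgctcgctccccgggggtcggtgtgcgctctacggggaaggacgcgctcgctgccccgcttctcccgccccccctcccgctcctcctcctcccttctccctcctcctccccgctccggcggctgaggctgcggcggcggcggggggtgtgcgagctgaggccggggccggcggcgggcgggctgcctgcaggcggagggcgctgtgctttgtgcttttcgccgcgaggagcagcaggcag

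Of the genes printed for their E-box, FBL, MRTO4 and NOL7 were lower in the ChAT lines and RRP9 was higher. Among the 24 members with a value and a window, 12 held CACGTG. By the call in 82CHAT against WT cells, CACGTG was present in 2 of 4 higher members, 3 of 4 lower members and 7 of 16 members that did not pass the test. Of the 14 E-boxes in members with a value, 11 lay within 50 bases of the start. A match describes these letters only, and binding of a factor was not measured.

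In the fit without the replicate number as a block, most of the 28 genes did not pass between 69CHAT and WT cells. Those that did went both ways. DDX10, UBTF and RRP9 were higher and MRTO4, FBL, NOL7 and TCOF1 were lower at an adjusted p under 0.05, and 21 genes were not called. These are 10.7% higher and 14.3% lower, against 11.7% higher and 17.7% lower, 29.4% in all, over all 11963 genes. The median log2 difference of the 28 genes was 0.0052, with a range of -1.16 to 0.73, against a median of 0.05 over all genes. The 3 arrays of each group did not overlap for 6 genes above and 7 below WT, against 22.9% above and 24.3% below over all genes. These shares are near or below the background and are not a result about the members. Without 69CHAT replicate 1, or without 82CHAT replicate 1, 5 genes were called higher in 69CHAT cells, where the share over all genes was 12.5% and 14.02%.

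The comparison of 82CHAT with WT cells uses the same 3 WT arrays. DDX10, UTP20, UBTF and RRP9 were higher, MRTO4, FBL, NOL7, TCOF1 and EXOSC2 were lower, and 19 genes were not called. The shares were 14.3% higher and 17.9% lower, 32.1% in all, against 11.8%, 18.5% and 30.3% over all genes. The median log2 difference was 0.03, with a range of -1.07 to 0.80, against 0.05 over all genes. Groups did not overlap for 4 genes above and 7 below WT, against 21.1% and 24.6% over all genes. With the replicate number as a block, 6 genes were called higher and 8 lower in 69CHAT cells and 5 higher and 8 lower in 82CHAT cells. Over all genes the block called 17.4% higher and 22.9% lower in 69CHAT cells and 18.3% and 23.6% in 82CHAT cells. The genes named above kept their calls, and RRP1B, NHP2, POLR1C and EXOSC7 were gained in both lines and NPM1, UTP20 and EXOSC2 in 69CHAT cells.

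**Figure D2:**
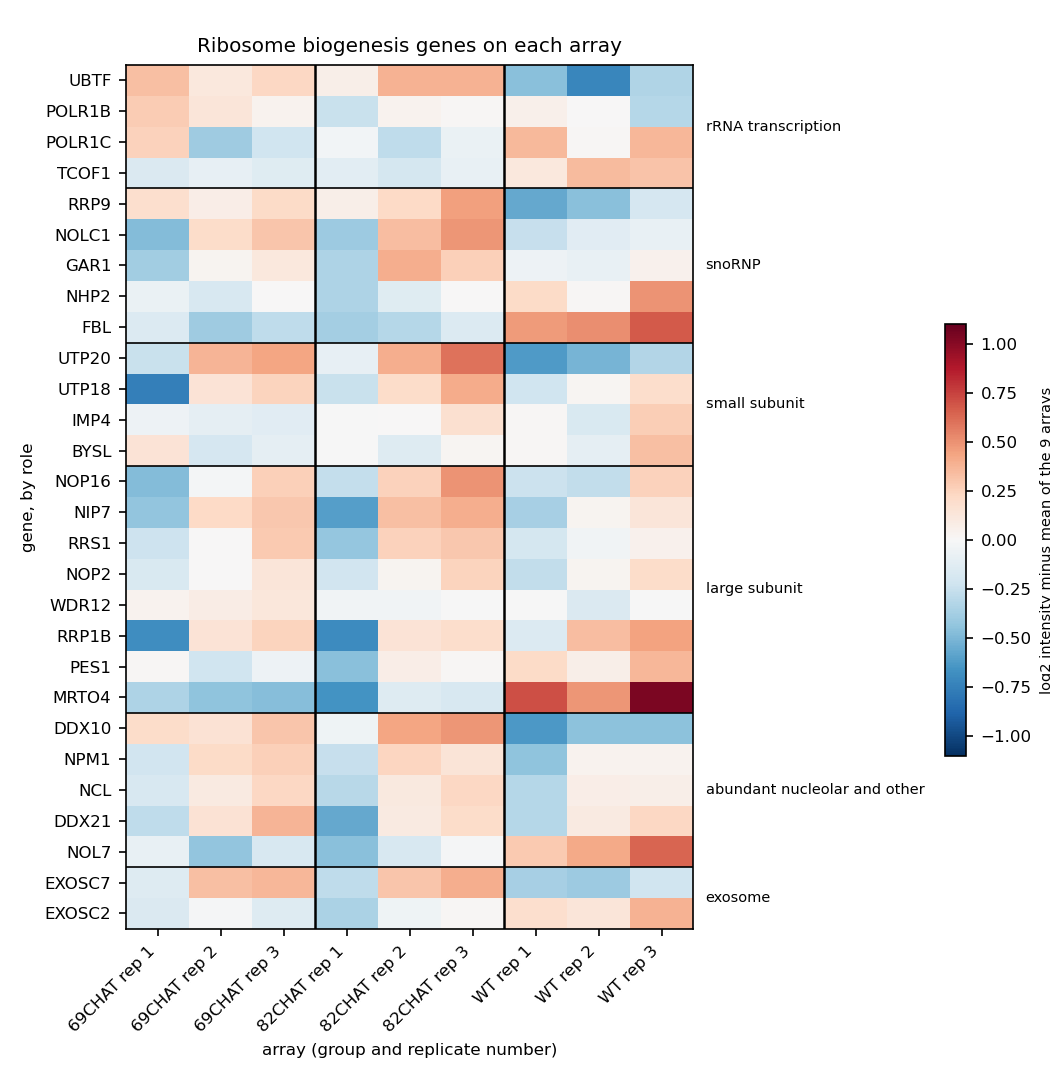
Log2 intensity of the 28 genes (rows, grouped by role) on each of the 9 arrays (columns), minus the gene's mean over the arrays, with red above and blue below it. WT columns are blue for UBTF, RRP9, UTP20 and DDX10 and red for FBL, MRTO4 and NOL7, and the first replicate of each group is blue for NOP16, NIP7, RRS1, NOP2 and RRP1B.

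**Figure D3:**
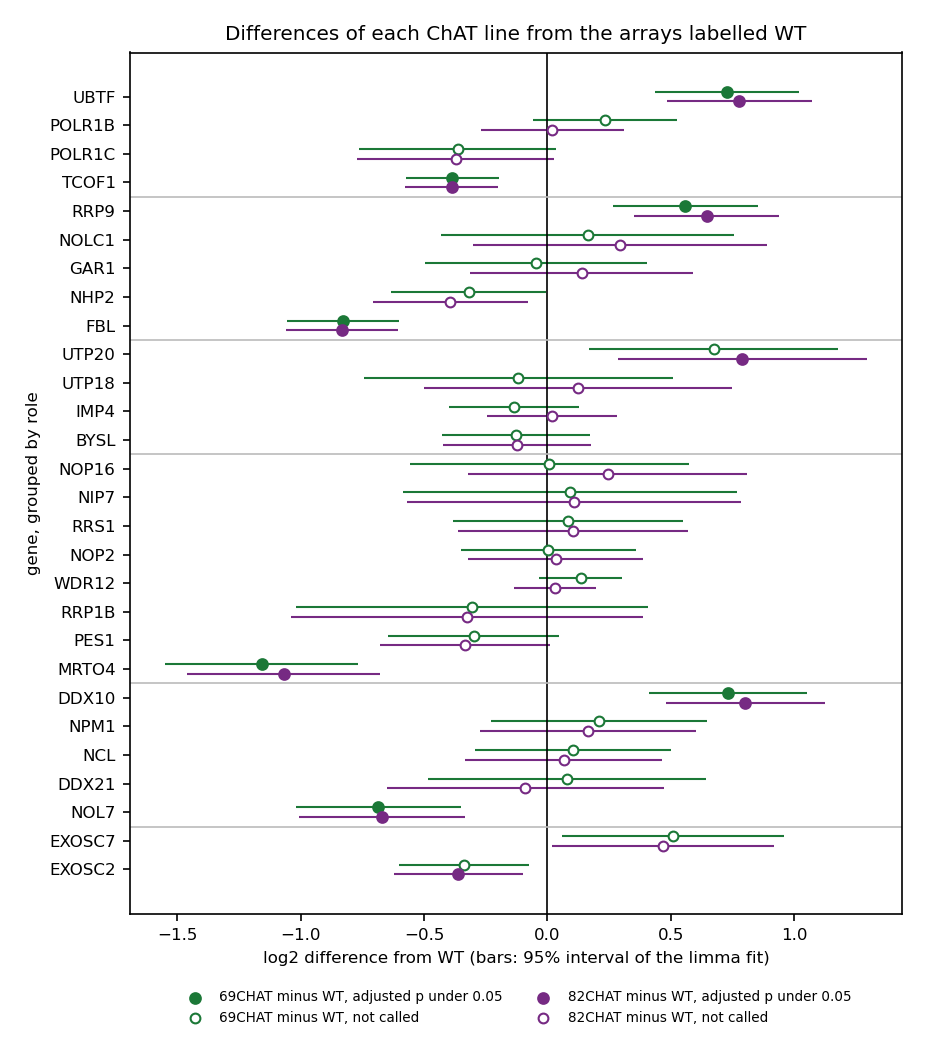
Log2 difference of 69CHAT and 82CHAT cells from WT cells (x axis) for the 28 genes, grouped by role, with the 95% interval of the limma fit as bars and filled points at an adjusted p under 0.05. The differences run from -1.16 to 0.80, and most intervals of uncalled genes include 0.

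Genes of ribosomal RNA transcription split. UBTF, which binds the ribosomal RNA genes and helps to assemble the polymerase I initiation complex, read 538, 461 and 500.5 in 69CHAT cells, 447, 555 and 555 in 82CHAT cells, and 310.4, 260.0 and 338 in WT cells. All ChAT line arrays lay above all WT arrays, 1.66-fold higher in 69CHAT cells (log2 0.73 ± 0.13, SE; adjusted p = 0.0030) and 1.71-fold higher in 82CHAT cells (0.78 ± 0.13; adjusted p = 0.0021). A dimmer UBTF probe set was higher as well, by 0.76 and 0.92 on the log2 scale in 69CHAT and 82CHAT cells. TCOF1, the treacle protein that acts in polymerase I transcription, read 445, 465 and 453 in 69CHAT cells, 458, 435 and 469 in 82CHAT cells, and 538, 630.1 and 617 in WT cells. It was 1.31-fold lower in each ChAT line (log2 difference -0.39 ± 0.08 in each; adjusted p = 0.0082 in 69CHAT cells and 0.0081 in 82CHAT cells). A dimmer TCOF1 probe set passed the test in 69CHAT cells (log2 -0.47, limma adjusted p = 0.031) and missed it in 82CHAT cells (-0.38, adjusted p = 0.072). POLR1B, the second largest polymerase I subunit, read 251, 227 and 212 in 69CHAT cells, 174, 212 and 209 in 82CHAT cells, and 215, 208 and 166 in WT cells, so the groups overlapped. Its only probe set carries the suffix that marks probes shared with other transcripts, so the POLR1B values are uncertain. POLR1C, a subunit that polymerases I and III share, differed by -0.36 in 69CHAT cells and -0.37 in 82CHAT cells (adjusted p = 0.18 and 0.16). A dimmer POLR1C probe set differed by -0.54 and -0.64 and passed the test (adjusted p = 0.012 and 0.0055), so its probe sets disagree on the call. With the replicate block the brightest one passed in both lines (adjusted p = 0.034 and 0.031).

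The snoRNP genes also went both ways. FBL, the ribose methyltransferase of box C/D snoRNPs, read 4810, 4066 and 4398 in 69CHAT cells, 4113, 4309 and 4810 in 82CHAT cells, and 7408, 7633 and 8513 in WT cells. The groups did not overlap, and FBL was 1.78-fold lower in 69CHAT cells (log2 -0.83 ± 0.10; adjusted p = 0.00035) and 1.78-fold lower in 82CHAT cells (-0.83 ± 0.10; adjusted p = 0.00034). RRP9, a protein of the snoRNP that guides early cleavage of the precursor, read 651, 603 and 664 in 69CHAT cells, 598, 665 and 785 in 82CHAT cells, and 389, 416 and 504 in WT cells. It was 1.47-fold higher in 69CHAT cells (log2 0.56 ± 0.13; adjusted p = 0.012) and 1.57-fold higher in 82CHAT cells (0.65 ± 0.13; adjusted p = 0.0057), and its groups did not overlap. NHP2, a core protein of H/ACA snoRNPs that guide pseudouridylation, differed by -0.32 and -0.39 in the 69CHAT and 82CHAT cells without passing the test (adjusted p = 0.14 and 0.068), and passed it with the replicate block (0.041 and 0.018). GAR1, another H/ACA core protein, and NOLC1, a snoRNP chaperone, had overlapping groups in both comparisons. The NOLC1 probe sets disagree: both dimmer ones were higher in 82CHAT than in WT cells (log2 0.71 and 0.78; adjusted p = 0.011 and 0.022) and were not called in 69CHAT cells.

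Of the 4 small subunit factors, UTP20, a component of the small subunit processome, was the one that passed. It read 347, 535 and 557 in 69CHAT cells, 387, 545 and 624 in 82CHAT cells, and 267, 289 and 330 in WT cells. The groups did not overlap, with values 1.596-fold higher in 69CHAT cells, short of the threshold (log2 0.67 ± 0.22; adjusted p = 0.055), and 1.73-fold higher in 82CHAT cells (0.79 ± 0.22; adjusted p = 0.029). With the replicate block UTP20 passed in 69CHAT cells too (adjusted p = 0.0025). The call in 82CHAT cells was lost without 82CHAT replicate 2 or 3 or without WT replicate 1 or 2 (adjusted p = 0.081 to 0.092). UTP18 and IMP4, processome proteins, and BYSL, which acts in small subunit maturation, differed by -0.14 to 0.12 from WT over both lines, and none passed.

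Of the 8 large subunit factors, 1 passed. MRTO4, an assembly factor related to the stalk protein of the large subunit, read 454, 423 and 416 in 69CHAT cells, 363, 520.3 and 507 in 82CHAT cells, and 939.7, 802 and 1178 in WT cells. Every WT array lay above every ChAT line array, and MRTO4 was 2.23-fold lower in 69CHAT cells (log2 -1.16 ± 0.17; adjusted p = 0.0011) and 2.10-fold lower in 82CHAT cells (-1.07 ± 0.17; adjusted p = 0.0018). This was the largest difference from WT among the 28 genes. NOP2, a ribosomal RNA methyltransferase, NOP16, NIP7, RRS1, RRP1B and the PeBoW complex genes WDR12 and PES1 differed by -0.33 to 0.24 over both lines. With the replicate block RRP1B was called lower in both lines (adjusted p = 0.035 and 0.026), while its dimmer probe set had the other sign (log2 0.12 and 0.27, not called). The PeBoW complex acts in large subunit processing, and its other member, BOP1, had no value.

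The abundant nucleolar proteins did not pass the test. NCL, nucleolin, which binds the ribosomal RNA genes and the precursor, read 3820, 4625 and 5073 in 69CHAT cells, 3496, 4649 and 5071 in 82CHAT cells, and 3483, 4561 and 4530 in WT cells. NPM1, the chaperone nucleophosmin, read 5239, 7004 and 7254 in 69CHAT cells, 5077, 7131 and 6697 in 82CHAT cells, and 4453, 6218 and 6227 in WT cells. The groups overlapped for both, with log2 differences of 0.11 and 0.07 for NCL (95% intervals -0.29 to 0.50 in 69CHAT cells and -0.33 to 0.46 in 82CHAT cells) and of 0.21 and 0.16 for NPM1 (-0.23 to 0.65 and -0.27 to 0.60). DDX21, a nucleolar helicase, had differences of 0.08 and -0.09. In the fit with the replicate number as a block NPM1 was called in 69CHAT cells (adjusted p = 0.034). The NPM1 probe sets disagree in sign. In the fit without the block the next brightest differed by 0.38 and 0.28 in 69CHAT and 82CHAT cells, and was not called. The dimmest differed by -0.25 and -0.18, and was not called either.

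DDX10, another RNA helicase, did pass, with 956, 928 and 1030.2 in 69CHAT cells, 806, 1122 and 1169 in 82CHAT cells, and 537, 610.4 and 608 in WT cells. It was 1.66-fold higher in 69CHAT cells (log2 0.73 ± 0.14; adjusted p = 0.0047) and 1.74-fold higher in 82CHAT cells (0.80 ± 0.14; adjusted p = 0.0029). NOL7, a nucleolar protein, read 1046, 819 and 979 in 69CHAT cells, 806, 979 and 1097 in 82CHAT cells, and 1357, 1483 and 1732 in WT cells. It was 1.61-fold lower in 69CHAT cells (log2 -0.68 ± 0.15; adjusted p = 0.0083) and 1.59-fold lower in 82CHAT cells (-0.67 ± 0.15; adjusted p = 0.0094). NOL7 has 4 probe sets and they disagree: the next brightest differed by -0.70 and -0.72 in 69CHAT and 82CHAT cells (adjusted p = 0.056 and 0.052), another by -0.09 and -0.11 (adjusted p = 0.57 and 0.46), and the dimmest read only 62.9 to 68.0. The brightest one carries the suffix that marks probes shared with other transcripts, so the NOL7 values are uncertain.

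The exosome, which trims and degrades RNA from the 3′ end, had 1 member on either side. EXOSC2, a cap subunit, read 743, 825 and 751 in 69CHAT cells, 653, 804 and 838 in 82CHAT cells, and 947, 910.2 and 1080 in WT cells. It was 1.28-fold lower in 82CHAT cells (log2 -0.36 ± 0.12; adjusted p = 0.048), close to the threshold, and missed it in 69CHAT cells (-0.34 ± 0.12; adjusted p = 0.062). The call was lost in 15 of the alternative settings, among them the removal of any array except 82CHAT replicate 3 (adjusted p = 0.053 to 0.16). The next brightest EXOSC2 probe set differed the same way (log2 -0.53 and -0.81 in 69CHAT and 82CHAT cells; adjusted p = 0.075 and 0.013), and the dimmest had the other sign and was not called. With the replicate block EXOSC2 passed in 69CHAT cells (adjusted p = 0.033) and in 82CHAT cells (0.025). EXOSC7, a ring subunit, read 759, 1051 and 1077 in 69CHAT cells, 690, 1037 and 1107 in 82CHAT cells, and 649.9, 636 and 721 in WT cells, and did not pass (log2 0.51 and 0.47; adjusted p = 0.098 and 0.12), but passed with the replicate block (0.017 and 0.022).

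Between the 2 ChAT forms none of the 28 genes was called higher or lower in 82CHAT than in 69CHAT cells, and 0.00% of all 11963 genes were called. At an unadjusted p under 0.05, limma gave 0 of the 28 genes and 441 of all genes. The largest positive differences were those of UTP18 and NOP16, 0.24 each on the log2 scale (95% intervals -0.38 to 0.87 and -0.33 to 0.80). The largest negative one was that of POLR1B, -0.21 (-0.50 to 0.08), and the median was 0.01. UBTF differed by 0.05 (-0.24 to 0.34) and FBL by -0.0043 (-0.23 to 0.22), and over the 28 genes the intervals reached from -0.74 to 0.87. The intervals differed in width between genes, as that of TCOF1 ran only from -0.19 to 0.19. The groups did not overlap for IMP4 above and WDR12 below, against 2.93% and 3.94% of all genes.

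Other ribosome biogenesis genes, taken from lists of 122 measured genes, also went both ways. In each of 69CHAT and 82CHAT cells 16 (13.1%) were higher and 28 (23.0%) lower than in WT cells. Over all genes 11.7% were higher and 17.7% lower in 69CHAT cells, and 11.8% and 18.5% in 82CHAT cells. These shares over all genes are also the background to the counts of each ribosome biogenesis list below. Medians of the 122 genes were -0.03 and -0.06 on the log2 scale, against 0.05 over all genes. Of 16 RNA polymerase I genes, 4 were higher and 4 lower in 69CHAT cells and 4 and 2 in 82CHAT cells. TAF1A, a subunit of the polymerase I selectivity factor, was 2.505-fold and 2.66-fold higher in 69CHAT and 82CHAT cells, whereas TAF1C of the same factor was lower by 1.26-fold and 1.47-fold. POLR1E, a polymerase I subunit, was 1.87-fold and 1.56-fold higher in 69CHAT and 82CHAT cells. Of 10 snoRNP genes 2 were higher and 3 lower in each line, among them NUFIP1, an assembly factor 1.59-fold and 1.57-fold higher, and RUVBL2, an ATPase of the same assembly path 1.79-fold and 1.66-fold lower.

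Of 35 small subunit genes, 3 were higher and 5 lower in 69CHAT cells and 3 and 6 in 82CHAT cells. MPHOSPH10, a processome protein, was 2.02-fold and 2.08-fold higher in 69CHAT and 82CHAT cells, and AATF, which acts in small subunit assembly, was 2.40-fold and 2.20-fold lower. Of 41 large subunit genes, 5 were higher and 9 lower in 69CHAT cells and 5 and 11 in 82CHAT cells. RSL24D1, a large subunit assembly factor, was 2.54-fold and 2.15-fold higher, and NOC2L was 3.00-fold and 2.27-fold lower. Of 20 exosome and nuclease genes, 2 were higher and 7 lower in 69CHAT cells and 2 and 6 in 82CHAT cells. POP4, a subunit of the RNases P and MRP, read 319, 405 and 459.7 in 69CHAT cells, 305, 463 and 467 in 82CHAT cells, and 1606, 1858 and 1921 in WT cells. It was 4.58-fold lower in 69CHAT cells (log2 -2.20 ± 0.19; adjusted p = 5.6e-05) and 4.43-fold lower in 82CHAT cells (-2.15 ± 0.19; adjusted p = 6.4e-05), whereas POP1 of the same enzymes was 2.25-fold and 2.31-fold higher.

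Genes known as MYC targets outside the nucleolus gave 9 higher and 5 lower of 30 in 69CHAT cells and 9 and 6 in 82CHAT cells. These are 30% higher and 16.7% lower in 69CHAT cells and 30% and 20% in 82CHAT cells. Over all genes 11.7% were higher and 17.7% lower in 69CHAT cells, and 11.8% and 18.5% in 82CHAT cells. The medians of the 30 genes were 0.24 and 0.10. PPAT, an enzyme of purine synthesis, was 2.08-fold and 2.25-fold higher in 69CHAT and 82CHAT cells, and EIF4EBP1, a translation repressor, was 2.12-fold and 1.76-fold higher. SRM, spermidine synthase, was lower (log2 -0.998 and -0.95). CCND2, cyclin D2, was lower as well (-4.40 and -4.44), at 28.5 to 37.2 in the ChAT lines, close to background. Of 11 MYC network genes, 4 were higher and 2 lower in 69CHAT cells and 3 and 1 in 82CHAT cells, MYCN and MYC included. MAX, the partner of both, differed by 0.31 and 0.15 without passing (adjusted p = 0.24 and 0.55).

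Of 16 proliferation markers, 0 were higher, 7 (43.75%) lower and 9 not called in 69CHAT cells. In 82CHAT cells 1 (6.25%) was higher, 5 (31.25%) lower and 10 not called. Over all genes 11.7% were higher and 17.7% lower in 69CHAT cells, and 11.8% and 18.5% in 82CHAT cells. The medians of the markers were -0.37 and -0.27. Their summed intensity was 24266 to 32432 in 69CHAT cells, 26253 to 36089 in 82CHAT cells and 35582 to 40156 in WT cells, so 82CHAT and WT cells overlapped. Their part in the differences of the ribosome biogenesis genes was not tested. In bulk RNA, fewer cells expressing a gene and less RNA of it per cell cannot be told apart.

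**Figure D4:**
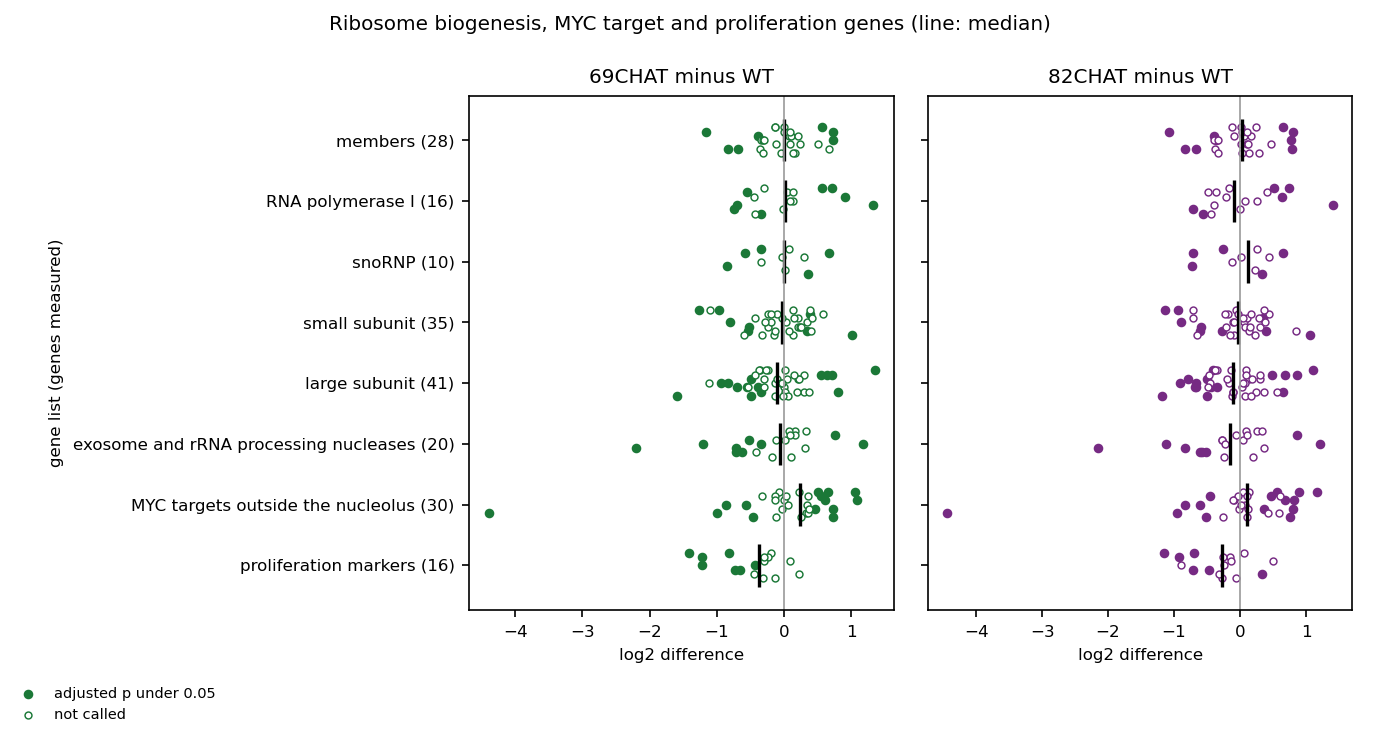
Log2 difference of 69CHAT (left) and 82CHAT cells (right) from WT cells, with a point per gene, rows for gene lists with the number of genes measured, filled points at an adjusted p under 0.05 and a black line at the median. The ribosome biogenesis lists have medians of -0.15 to 0.12, MYC targets outside the nucleolus 0.24 and 0.10, and proliferation markers -0.37 and -0.27.

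Ribosome biogenesis genes varied with the replicate number as well as with the group. Replicate 1 lay below both other replicates for 16 of the 28 genes in 69CHAT cells, 24 in 82CHAT cells and 15 in WT cells, against 39.5%, 39.9% and 34.8% of all genes. The median of replicate 1 minus the mean of replicates 2 and 3 was -0.07 in 69CHAT, -0.46 in 82CHAT and -0.17 in WT cells on the log2 scale, against 0.03 over all genes in each. For 10 genes, NOLC1, UTP18, UTP20, NOP2, NIP7, RRS1, RRP1B, NCL, NPM1 and DDX21, replicate 1 was the lowest in all 3 groups. RRP1B, a nucleolar protein of the large subunit path, read 944, 1678 and 1794 in 69CHAT cells, 936, 1679 and 1727 in 82CHAT cells, and 1365, 1911 and 2054 in WT cells. The gap between replicate 1 and the others exceeded the difference from WT for 13 of 28 genes in 69CHAT cells and 15 in 82CHAT cells. Neither these counts nor that of the 10 genes was set against all genes, so they are not results about the members. Within each replicate number the median difference of the 28 genes was -0.07, 0.06 and 0.06 between 69CHAT and WT cells, against 0.04, 0.03 and 0.03 over all genes. Between 82CHAT and WT cells it was -0.19, 0.08 and 0.08, against 0.04, 0.04 and 0.02. Between 82CHAT and 69CHAT cells it was -0.15 in replicate 1, 0.07 in replicate 2 and 0.12 in replicate 3, against 0, 0.0058 and -0.0019 over all genes. In replicate 1, 21 of 28 genes were lower in 82CHAT cells, and 22 and 21 were higher in replicates 2 and 3. The shares of all genes lower or higher there were not computed. What the replicate number stands for, such as a culture or a hybridisation day, is not given in the sources used here.

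**Figure D5:**
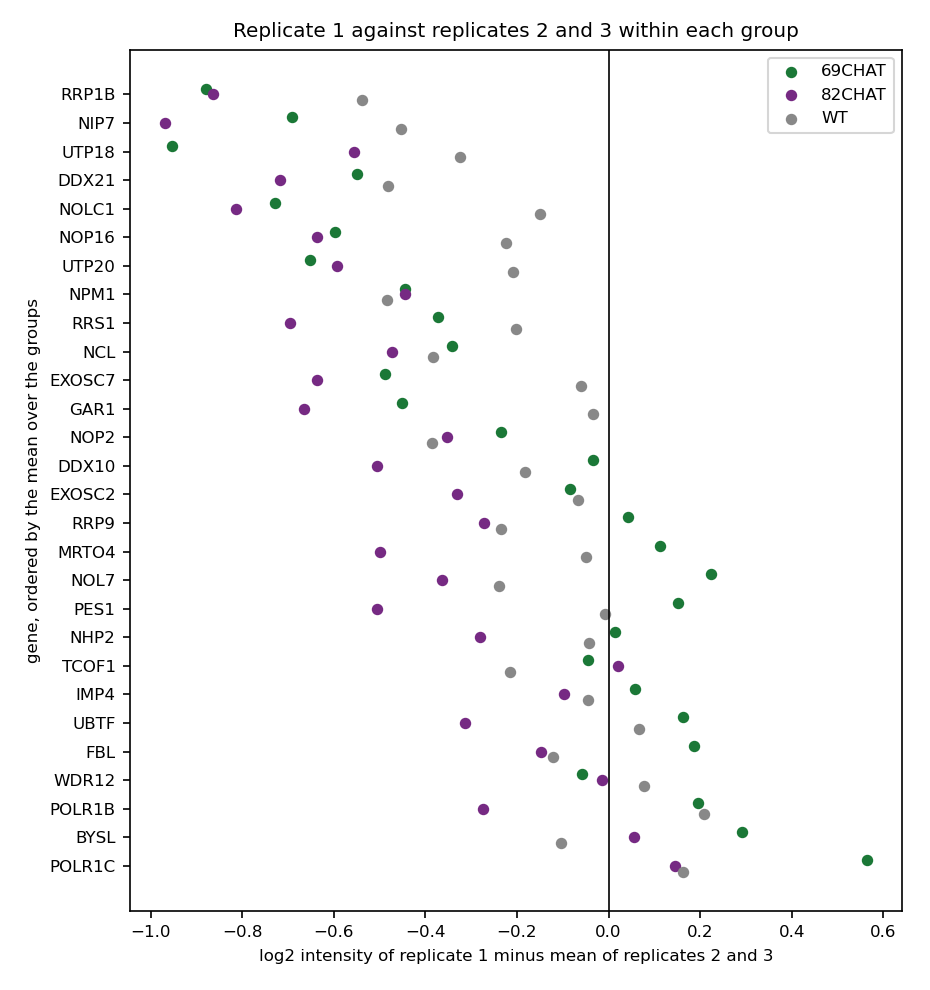
Log2 intensity of replicate 1 minus the mean of replicates 2 and 3 within 69CHAT, 82CHAT and WT cells (x axis) for each of the 28 genes, ordered by the mean over groups. Most points lie left of 0, down to -0.97, and RRP1B, NIP7 and UTP18 are among the lowest, while POLR1C reaches 0.56 in 69CHAT cells.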

How the data were processed

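Total RNA was measured on 9 single-channel oligonucleotide arrays, 3 per group, with groups and replicate numbers from the sample titles. The series' design text calls them biological replicates. The authors deposited linear intensities made with RMA, per the submitters' processing notes; its version is not given in the sources used here. They ran from 14.9 to 21486, with array medians of 133.7 to 142.6, and the number of arrays limits the precision. Of 22283 probe sets, 68 controls were left out and 22215 tested. The platform annotation gave 19071 probe sets 1 symbol, 1043 several and 2169 none; only the first were named.

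Here log2 of the deposited intensity entered a limma fit (limma 3.58.1, R 4.3.3; 3 group means, eBayes). Tests were two-sided, adjusted by Benjamini-Hochberg over all 22215 probe sets and called at 0.05. The fit was tested on simulated data. Members and lists were chosen with earlier results of these data known. Named were MYC, MYCN, NCL, NPM1, FBL, UBTF and POLR1B, up to 8 called members each way per comparison with WT and up to 3 genes each way per list; DKC1 was on the same list but has no value. Values of other members are given as ranges or as background to a count. Deviations of same-numbered arrays from their group means correlated at 0.28 to 0.57 in all 9 pairs. The main fit had no block and did not use this pairing, which only the alternative with the replicate block did. Pairs of unlike number reached -0.59 to 0.48, since replicates 2 and 3 also correlated with each other across groups, so the numbers mainly part replicate 1 from the rest. There were 24 alternatives, among them another normalization, other probe set choices, array weights, the replicate block and each array left out.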

Additional observations from a re-analysis of the deposited data

How the results depend on the processing

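Over 24 alternatives, no call of a member named above changed direction. Calls of list genes other than MYC and MYCN were not followed over the alternatives. In 69CHAT against WT cells the members called higher numbered 5 with quantile normalization, 7 with array quality weights, 5 with only the 6 arrays compared, 6 with the replicate block and 6 with replicates 2 and 3 only, and those called lower numbered 1 with the probe sets of shared suffixes left out (17 members then have a value), 8 with array weights and 8 with the block. In 82CHAT against WT cells the higher ones numbered 7 with array weights and 8 with replicates 2 and 3 only, and the lower ones 2 with the suffixes left out, 8 with the block and 3 at 1.5-fold or more. With the suffixes left out FBL, MRTO4, TCOF1 and UBTF have no value and NOL7 was not called. The lower calls were then POLR1C in 69CHAT cells and POLR1C and EXOSC2 in 82CHAT cells. Over all genes 14.7% and 15.5% were called lower in that setting. Between 82CHAT and 69CHAT cells 1 gene, GAR1, was called higher with array weights, which called 4.05% of all genes higher and 4.76% lower there. The shares over all genes rose with array weights and with replicates 2 and 3 only. In 69CHAT cells array weights called 21.4% higher and 25.6% lower and replicates 2 and 3 only 19.6% and 23.9%. In 82CHAT cells they called 21.9% and 24.99% (weights) and 20.2% and 23.8% (replicates 2 and 3). With only the 6 arrays compared, the shares in 69CHAT cells were 12.1% higher and 17.8% lower, close to 11.7% and 17.7% in the main fit. Quantile normalization called 13.5% of all genes higher in 69CHAT cells. At 1.5-fold or more, 13.5% of all genes were lower in 82CHAT cells. Leaving out each array in turn gave 3 to 5 higher and 4 to 5 lower in 69CHAT cells, and likewise 3 to 5 and 4 to 5 in 82CHAT cells. The medians then ran from -0.085 to 0.16 in 69CHAT against WT, -0.042 to 0.15 in 82CHAT against WT and -0.076 to 0.15 in 82CHAT against 69CHAT cells. Some uncalled differences reversed in sign. Between 82CHAT and 69CHAT cells FBL became 0.080 with array weights and 0.11 with replicates 2 and 3 only, and NCL became 0.0035 with replicates 2 and 3 only. With 1 array left out, the values between 82CHAT and 69CHAT cells ran from -0.0684 to 0.0576 for FBL, -0.0543 to 0.0066 for MYC, -0.0883 to 0.231 for MYCN, -0.154 to 0.118 for NCL, -0.193 to 0.103 for NPM1, -0.00726 to 0.154 for UBTF and -0.0758 to 0.427 for UTP18. Against WT they ran from -0.0225 to 0.22 for NCL in 69CHAT cells, -0.0628 to 0.223 for NCL in 82CHAT cells and -0.0955 to 0.111 for POLR1B in 82CHAT cells. The cause of these changes was not tested. The UTP20 call in 82CHAT cells was lost in 6 settings and that of EXOSC2 in 15. RRP9 lost its call in 69CHAT cells at an adjusted p under 0.01 and at 1.5-fold or more. TCOF1 lost it in both lines at 1.5-fold or more, and in 82CHAT cells with the second brightest probe set. NOL7 lost it in both lines with the second brightest probe set and with the suffixes left out. The replicate block lost no member's call; those it gained are named beside the members.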
